A study of Homo sapiens with 4 samples.

Results

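Tissue factor starts blood clotting and the plasminogen activators start clot breakdown, and 9 genes of these systems were examined in FaDu cells with and without overexpressed TINCR. The genes were taken by symbol from a list, F3, TFPI, TFPI2, THBD, PROCR, PLAU, PLAUR, PLAT and SERPINB2. This list was drawn up with earlier results of these data known. All 9 were found among the 60649 gene rows of the count table, and 8 of them passed the filter on low counts, which left 18771 genes for testing. TFPI did not pass.

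Tissue factor, the product of F3, is a transmembrane receptor that binds factor VII and starts clotting. TFPI blocks that complex, while thrombomodulin (THBD) and the endothelial protein C receptor (PROCR) turn thrombin toward activation of the anticoagulant protein C. On the opposite side, urokinase (PLAU) and tissue-type plasminogen activator (PLAT) turn plasminogen into plasmin, which dissolves fibrin and cuts matrix proteins. PLAUR is the receptor of urokinase, and SERPINB2 is an inhibitor of these activators. Squamous carcinoma cells are known to make tissue factor and urokinase, and both have been studied there for their part in clotting and invasion.

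FaDu is a cell line derived from a squamous cell carcinoma of the human hypopharynx, and the cells were grown in MEM alpha Glutamax with fetal bovine serum. The empty vector group and the TINCR-HA-FLAG group, which overexpressed TINCR fused to HA and FLAG epitope tags, had 2 libraries each. The series calls the replicates technical and names no separate cultures, so the p-values below measure only the spread between these libraries. Neither the promoter of the construct nor the number of clones is stated in the labels.

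The libraries held 17069533 to 22331602 counts. Reads of TINCR numbered 68 and 64 in the empty vector group against 1921 and 2943 in the TINCR-HA-FLAG group, in keeping with the labels. The 8 squamous epithelial markers checked were all measured, with KRT5 between 3314 and 4759 CPM (counts scaled to the effective library size), and none of them was called between the groups. Their sum was 8038 and 9249 CPM with the empty vector and 6892 and 8239 CPM with TINCR-HA-FLAG. Groups did not overlap for 5 of the 8, beside 39.6% of all genes tested, and 7 of the 8 log2 fold changes were negative. Over all 18771 genes tested, 9518 log2 fold changes were positive. The most negative of the 8 markers was KRT6A, at 12.8 and 10.97 against 5.10 and 7.17 CPM (log2 fold change -0.94, edgeR adjusted p = 0.113). Some genes of the clotting system, THBD and PROCR among them, are known from endothelium, so 7 endothelial markers were summed as well. Their sum was 25.0 and 25.8 CPM with the empty vector and 49.2 and 52.7 CPM with TINCR-HA-FLAG. CDH5 gave 12.2 and 13.7 against 34.6 and 38.6 CPM of it and was called higher (edgeR adjusted p = 0.00124), and VWF gave 9.11 and 10.4 against 13.2 and 12.3 CPM. ERG lay lower with TINCR-HA-FLAG, at 33 and 16 against 6 and 12 counts (log2 fold change -1.68, edgeR adjusted p = 0.344), and CLDN5 overlapped between the groups at 8 to 21 counts. PECAM1 had 4 to 8 counts per library, KDR 0 to 2 and TEK 0 to 5. The sum of 6 fibroblast markers was 45.9 and 41.8 CPM against 50.6 and 50.9 CPM, and that of 5 leukocyte and monocyte markers 12.4 and 13.9 CPM against 10.5 and 13.6 CPM. The part of these markers in the results below was not tested.

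F3 was the 1 member called between the groups, and it fell with TINCR-HA-FLAG. F3 lies on the minus strand of GRCh38 chromosome 1 (94529225 to 94541800). Empty vector replicates 1 and 2 gave 7236 and 6836 reads of F3, and the TINCR-HA-FLAG replicates 4899 and 6009. As CPM these were 422 and 403 against 266 and 271, so both empty vector libraries lay above both TINCR-HA-FLAG libraries and the libraries within a group differed little. The means were 413 ± 13.6 and 268 ± 3.41 CPM (SD, n = 2 per group). The log2 fold change was -0.62 (SE 0.107, 95% interval -0.86 to -0.38), a level 0.650 times that of the empty vector (edgeR quasi-likelihood test, adjusted p = 0.0375). Gene counts do not separate the transmembrane form of tissue factor from its alternatively spliced soluble form. In RNA of whole cultures, fewer cells with F3 message and less message per cell cannot be told apart.

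Of the 8 members tested, 1 was called lower and 0 higher at an adjusted p under 0.05. Over all 18771 genes tested, 0.0959% were called lower and 0.453% higher. Because the members were chosen with earlier results of these data known, setting these shares side by side is no independent test. The median log2 fold change was -0.069 over the 8 members and 0.0042 over all genes tested. An unadjusted p under 0.05 was found for 3 of the 8, F3, TFPI2 and PLAU, beside 10.2% of all genes tested. Groups did not overlap for 4 of the 8, beside 39.6% of all genes tested.

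The call of F3 changed when single libraries were left out, while the size of its change moved little. Such fits reuse the same libraries and leave 1 residual degree of freedom, and edgeR then took the spread from all genes. With any 1 library left out, the log2 fold change of F3 stayed between -0.65 and -0.60. The adjusted p rose above the threshold of 0.05 in 3 of these 4 fits. It was 0.177 when empty vector replicate 1 was left out, 0.118 when the other empty vector library was, and 0.0582 when TINCR-HA-FLAG replicate 1 was. Leaving out TINCR-HA-FLAG replicate 2 gave 0.0242. With no filter on low counts the adjusted p was 0.0693, and with DESeq2 it was 5.1e-05. DESeq2 called F3 alone among the 7 members to which it gave an adjusted p, and 1.13% of its 13482 genes.

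**Figure D1:**
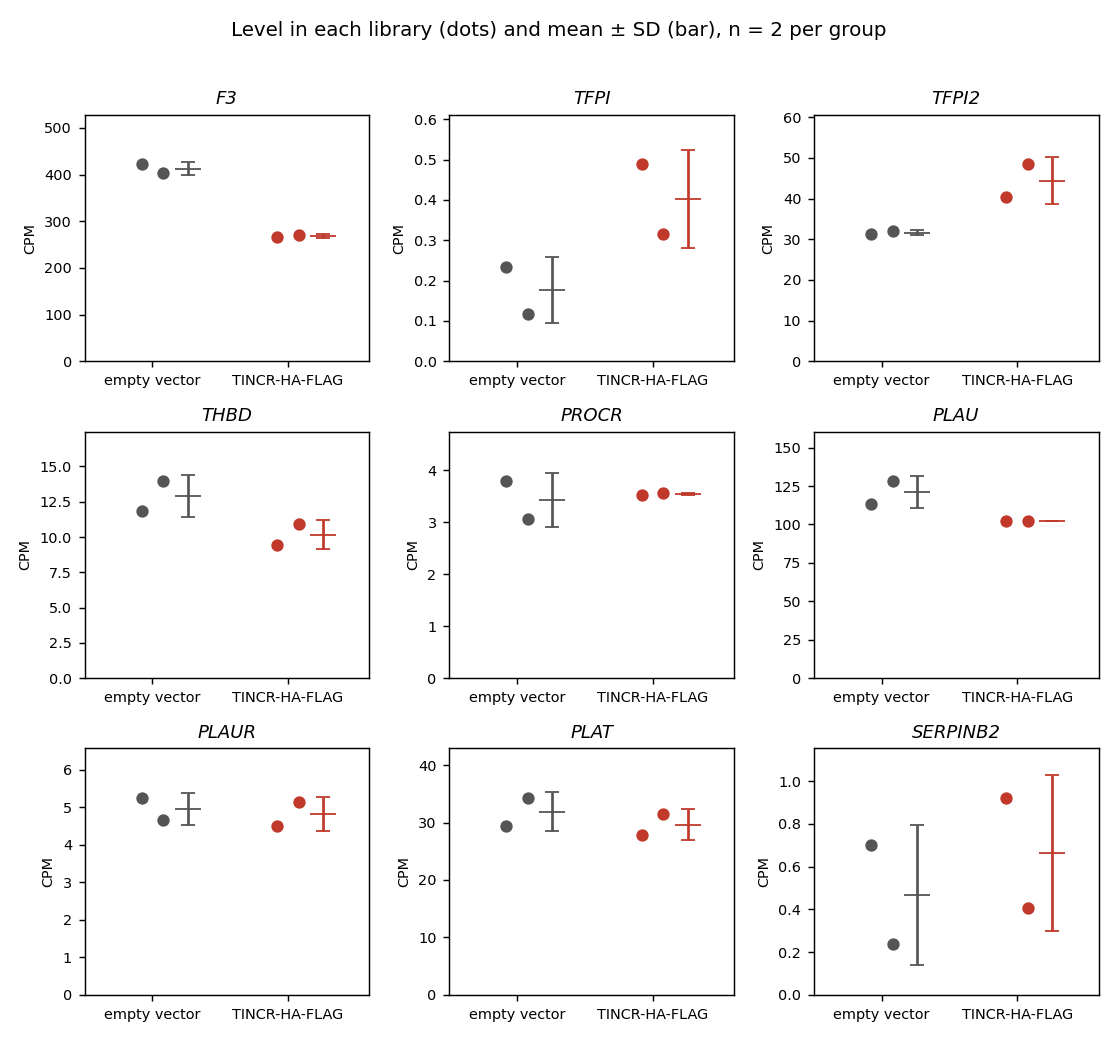
Level of each of the 9 genes in CPM (vertical axes, each starting at 0) in the empty vector libraries (grey) and the TINCR-HA-FLAG libraries (red), with dots for single libraries and bars for the mean ± SD of 2. F3 falls from about 413 to about 268 CPM with no overlap, TFPI2 lies higher with TINCR-HA-FLAG, and the values of PROCR, PLAUR, PLAT and SERPINB2 overlap between the groups.

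The start region of F3 is shown because F3 was the called member. It comes from RefSeq (GRCh38.p14, chr1:94541801-94542009, minus strand) and runs from 250 to 42 bases before the RefSeq start site, the part of the window that no GENCODE v29 exon covers. Capitals mark matches to 2 motifs searched on both strands, TGAGTCA for AP-1 and GGGCGG for SP1.
F3: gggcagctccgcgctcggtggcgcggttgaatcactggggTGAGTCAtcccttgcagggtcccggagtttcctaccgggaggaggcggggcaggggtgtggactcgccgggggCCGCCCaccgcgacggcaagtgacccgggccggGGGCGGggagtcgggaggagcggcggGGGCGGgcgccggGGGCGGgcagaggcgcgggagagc
It holds 1 AP-1 match, which begins 210 bases before the start site, and 4 SP1 matches, at 137, 104, 78 and 65 bases. The TEAD motif GGAATG had 0 matches there. In the 250 bases before all 35116 RefSeq start sites, the AP-1 motif was found in 4.20%, the SP1 motif in 42.6% and the TEAD motif in 11.9%. RefSeq windows were at hand for 7 of the 9 genes, THBD and PLAT excepted. Among the 8 windows of these 7 genes, the AP-1 motif was also found for PLAUR, 186 bases before its start site, and the TEAD motif in none. SP1 matches were found for TFPI2 (2), for PROCR (2) and in 1 of the 2 windows of PLAU (3). A match of letters describes the sequence and is no measure of binding.

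Of the tissue factor pathway inhibitors, TFPI was too low to be tested and TFPI2 was not called. TFPI, the main inhibitor of the tissue factor complex, was close to the limit of detection with 4 and 2 reads in the empty vector group and 9 and 7 in the TINCR-HA-FLAG group. At these depths 3 counts correspond to 0.135 to 0.177 CPM. The ratio of the summed counts, scaled to library size, was 2.24 with an exact 95% interval of 0.832 to 6.99 for counting error only. Without the filter on low counts its log2 fold change was 1.14 (SE 0.773, edgeR adjusted p = 0.801). TFPI2, a related inhibitor that acts mainly on plasmin and trypsin-like proteases in the matrix (chromosome 7, 93885396 to 93890991, minus strand), had 535 and 543 counts against 742 and 1075. This was 31.2 and 32.0 CPM with the empty vector and 40.3 and 48.5 CPM with TINCR-HA-FLAG, with every TINCR-HA-FLAG library above every empty vector library. TFPI2 shares 44 exon bases with GNGT1 on the opposite strand, which had 166 to 231 counts. Antisense genes also share exon bases with TFPI2 (79, AC002076.1), TFPI (118, AC007319.1) and PROCR (218, AL356652.1), and their counts were not examined. The log2 fold change of TFPI2 was 0.49 (SE 0.125, 95% interval 0.21 to 0.77, edgeR adjusted p = 0.157). Without TINCR-HA-FLAG replicate 1, the lower of that pair, TFPI2 had a log2 fold change of 0.62 and was called (adjusted p = 0.00657). Without TINCR-HA-FLAG replicate 2 it was 0.34 (adjusted p = 0.337).

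Measured per gene length within each library, F3 was 12.6 and 11.7 times TFPI2 with the empty vector and 6.16 and 5.21 times with TINCR-HA-FLAG. The difference in the log2 ratio was -1.10. With 2 libraries per group an exact permutation test cannot go below p = 0.333, which is the two-sided value here. This pair was chosen after the values were seen.

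The anticoagulant receptors of the protein C pathway were not called. THBD (chromosome 20, 23045633 to 23049741, minus strand) had 11.85 and 13.98 CPM with the empty vector and 9.45 and 10.9 CPM with TINCR-HA-FLAG, where all values of the second group were lower than those of the first. Its log2 fold change was -0.34 (SE 0.175, 95% interval -0.73 to 0.051, edgeR adjusted p = 0.571). PROCR, also on chromosome 20 (35172073 to 35216240, plus strand), had 3.79 and 3.07 CPM with the empty vector and 3.53 and 3.56 CPM with TINCR-HA-FLAG, so that the second group lay inside the first. The 95% interval of its log2 fold change, -0.57 to 0.67, covers a change of either sign. The log2 fold change of PROCR turned from 0.047 to -0.092 without empty vector replicate 2.

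The plasminogen activators themselves were not called. PLAU (chromosome 10, 73909177 to 73917497, plus strand) gave 1944 and 2176 reads in the empty vector group and 1882 and 2266 in the TINCR-HA-FLAG group. Scaled to library size it had 113 and 128 CPM against 102 in both TINCR-HA-FLAG libraries, with no overlap between the groups. The log2 fold change of PLAU was -0.24 (SE 0.106, 95% interval -0.48 to -0.0077), with an unadjusted p of 0.0441 and an adjusted p of 0.473 in edgeR. With empty vector replicate 2 left out it was -0.15, and with empty vector replicate 1 left out -0.37. PLAU shares 916 exon bases with C10orf55 on the opposite strand, which had 21 to 29 counts per library. PLAT had 29.5 and 34.3 CPM with the empty vector and 27.7 and 31.5 CPM with TINCR-HA-FLAG, with overlapping groups and a log2 fold change of -0.10 (SE 0.131, 95% interval -0.39 to 0.19, edgeR adjusted p = 0.866). Without empty vector replicate 2 it was 0.014.

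The urokinase receptor was not called, and neither was SERPINB2, which was among the least expressed members. PLAUR, which holds urokinase at the cell surface (chromosome 19, 43646095 to 43670547, minus strand), gave 90 and 79 reads in the empty vector group and 83 and 114 in the TINCR-HA-FLAG group, or 5.25 and 4.66 against 4.51 and 5.14 CPM. The groups overlapped, and the log2 fold change of -0.034 (95% interval -0.57 to 0.50, edgeR adjusted p = 0.981) changed sign in 2 of the 4 fits with a library left out. SERPINB2 (chromosome 18, 63871692 to 63903890, plus strand), an inhibitor of urokinase that stays largely inside the cell, had 12 and 4 counts against 17 and 9. Replicate 1 had more than replicate 2 in both groups, and the 95% interval of its log2 fold change ran from -1.15 to 2.04. That interval covers a 2-fold change of SERPINB2 in either direction. SERPINB2 shares 547 exon bases with SERPINB10, which had 0 to 2 counts per library.

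**Figure D2:**
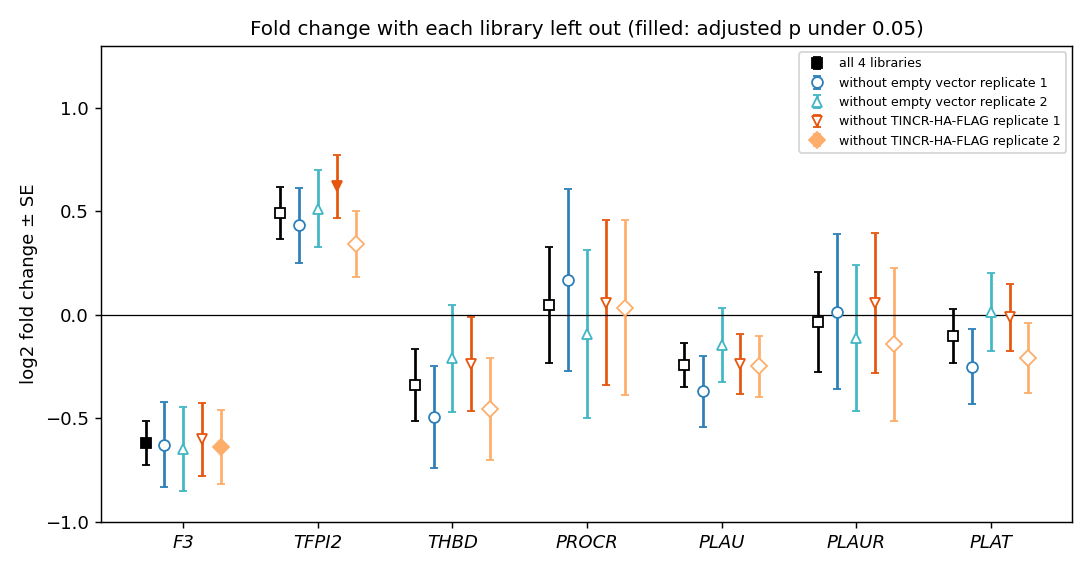
Log2 fold change ± SE (vertical axis) of 7 tested members with all 4 libraries (black) and with each library left out (colours), filled where the edgeR adjusted p was under 0.05; SERPINB2 is not drawn. F3 stays between -0.65 and -0.60 and TFPI2 between 0.34 and 0.62, while PROCR, PLAUR and PLAT lie on both sides of 0.

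The order of the levels was the same in all 4 libraries when counts were divided by the length of the merged exons and scaled to a common total per library (TPM). F3 was highest with a mean of 376 TPM with the empty vector and 244 TPM with TINCR-HA-FLAG, above 99.0% of the genes tested with the empty vector. PLAU followed with 107 and 90.5 TPM and TFPI2 with 30.9 and 43.2 TPM. PLAT had 12.6 and 11.7 TPM, THBD 8.22 and 6.47 TPM, PROCR 5.31 and 5.46 TPM and PLAUR 2.92 and 2.83 TPM. SERPINB2, with 0.450 and 0.632 TPM, and TFPI, with 0.0395 and 0.0897 TPM, stood last. No neighbours in this order overlapped over the libraries of a group. The order of THBD, PROCR and PLAUR depends on the length used: with the longest transcript as the length they had 6.75, 5.49 and 6.63 TPM with the empty vector.

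**Figure D3:**
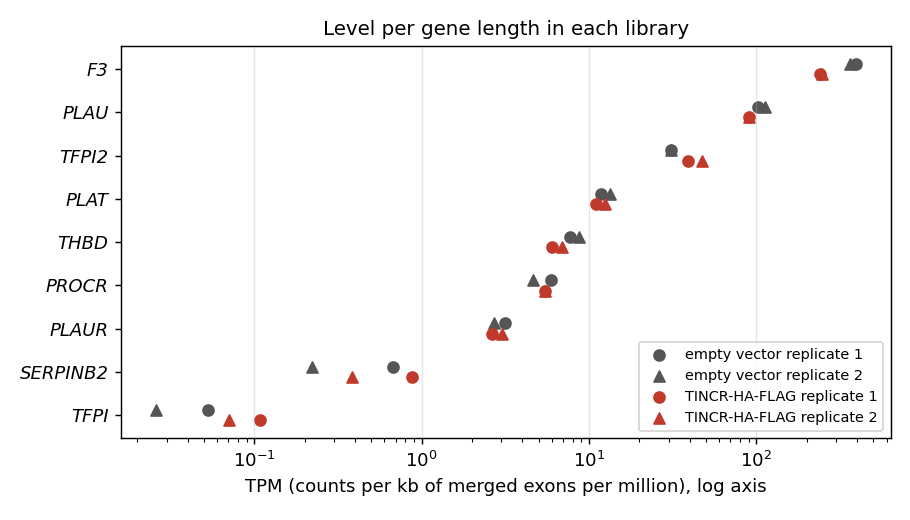
Level per gene length in TPM (horizontal log axis) of the 9 genes in each library, grey for the empty vector and red for TINCR-HA-FLAG, with circles for replicate 1 and triangles for replicate 2. F3 stands highest at 242 to 391 TPM and TFPI lowest at 0.0259 to 0.109 TPM, and the order is the same in each library.

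Within each library the message for urokinase stood far above those of PLAT and PLAUR. PLAU was 8.64 and 8.39 times PLAT with the empty vector and 8.26 and 7.27 times with TINCR-HA-FLAG, and 32.6 and 41.6 against 34.3 and 30.0 times PLAUR. These ratios depend on the gene lengths used. With the longest transcript as the length, the ratio of the means was 4.94 and 4.49 for PLAU to PLAT and 14.7 and 12.8 for PLAU to PLAUR, giving the empty vector group first.

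The other genes of these systems were examined through 5 lists with 67 genes in all, and none was called. Of the 67, 41 passed the filter on low counts, and 0 were called higher or lower by edgeR, beside 0.549% of all genes. By DESeq2, 0 of the 29 genes with an adjusted p passed. In edgeR 9 of the 41 had an unadjusted p under 0.05, beside 10.2% of all genes tested, and groups did not overlap for 18 of the 41, beside 39.6%. Their median log2 fold change was -0.071. Of the 41, 17 had a positive log2 fold change, beside 9518 of all 18771 genes tested.

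Inhibitors of the activators and of plasmin had 6 of 8 genes tested, 3 of them positive, and a median log2 fold change of -0.036. SERPINE2, protease nexin 1, had 4.26 and 4.84 CPM with the empty vector and 2.88 and 3.61 CPM with TINCR-HA-FLAG (log2 fold change -0.48, edgeR adjusted p = 0.625). Both TINCR-HA-FLAG libraries lay below both empty vector libraries for this gene. SERPINF2, the plasmin inhibitor alpha 2-antiplasmin, was named after its values were seen, since it had the most positive log2 fold change of these lists. It had 15 and 26 counts against 69 and 74 counts, a log2 fold change of 1.55 (SE 0.374, 95% interval 0.72 to 2.38, edgeR adjusted p = 0.139).

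Plasminogen and its binding proteins had 13 of 16 genes tested, with a median log2 fold change of 0.0018. PLG, the gene of plasminogen itself, had 0 to 2 counts per library. ENO1, an enolase that also binds plasminogen at the cell surface, had 1009 and 1158 CPM with the empty vector and 794 and 960 CPM with TINCR-HA-FLAG (log2 fold change -0.30, 95% interval -0.62 to 0.011, edgeR adjusted p = 0.517). ANXA2, a surface docking protein for plasminogen and PLAT, had 860 and 959.6 against 824 and 951 CPM, with overlapping groups and a log2 fold change of -0.036 (95% interval -0.33 to 0.26).

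Of the soluble clotting factors and the enzymes that modify them, 11 of 27 genes were tested, with a median log2 fold change of -0.31. This median is the value of 1 gene with 15 to 33 counts per library. The log2 fold change was positive for 3 genes and negative for 8. VWF, among the positive, had a log2 fold change of 0.39 (edgeR adjusted p = 0.481). F7, whose protein is the partner of tissue factor, had 1 count in 1 library and 0 in the others. F10, the next enzyme in the cascade, had 2 to 11 counts. The most expressed genes of the list were of the vitamin K cycle, which serves the modification of clotting factors. VKORC1L1 had 76.8 and 78.0 against 70.3 and 75.3 CPM and GGCX 55.7 and 51.8 against 49.96 and 49.0 CPM, with edgeR adjusted p of 0.854 and 0.788.

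The protease-activated receptors, through which thrombin and the tissue factor complex signal to cells, had 3 of 4 genes tested, all with a positive log2 fold change and a median of 0.31. F2R, the thrombin receptor, had 30.6 and 37.3 CPM with the empty vector and 40.0 and 44.1 CPM with TINCR-HA-FLAG (log2 fold change 0.31, 95% interval 0.022 to 0.60, edgeR adjusted p = 0.446). F2RL1, the receptor cut by the tissue factor complex, had 65.3 and 83.8 against 68.8 and 84.4 CPM, so the spread within each group was larger than the log2 difference of 0.041 between them. That difference turned to -0.17 without empty vector replicate 1. The other receptor gene tested had 11 to 27 counts per library and overlapping groups.

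The clade B serpins, the family of SERPINB2, had 8 of 12 genes tested and a median log2 fold change of -0.19, with 7 negative. SERPINB1 had 52.8 and 52.0 against 54.4 and 53.5 CPM and SERPINB6 53.3 and 47.7 against 50.9 and 48.0 CPM, both with a 95% interval that includes 0. SERPINB9, which blocks granzyme B and was named after its values were seen, had 50.6 and 51.4 against 38.1 and 38.0 CPM (log2 fold change -0.42, SE 0.106, edgeR adjusted p = 0.153).

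**Figure D4:**
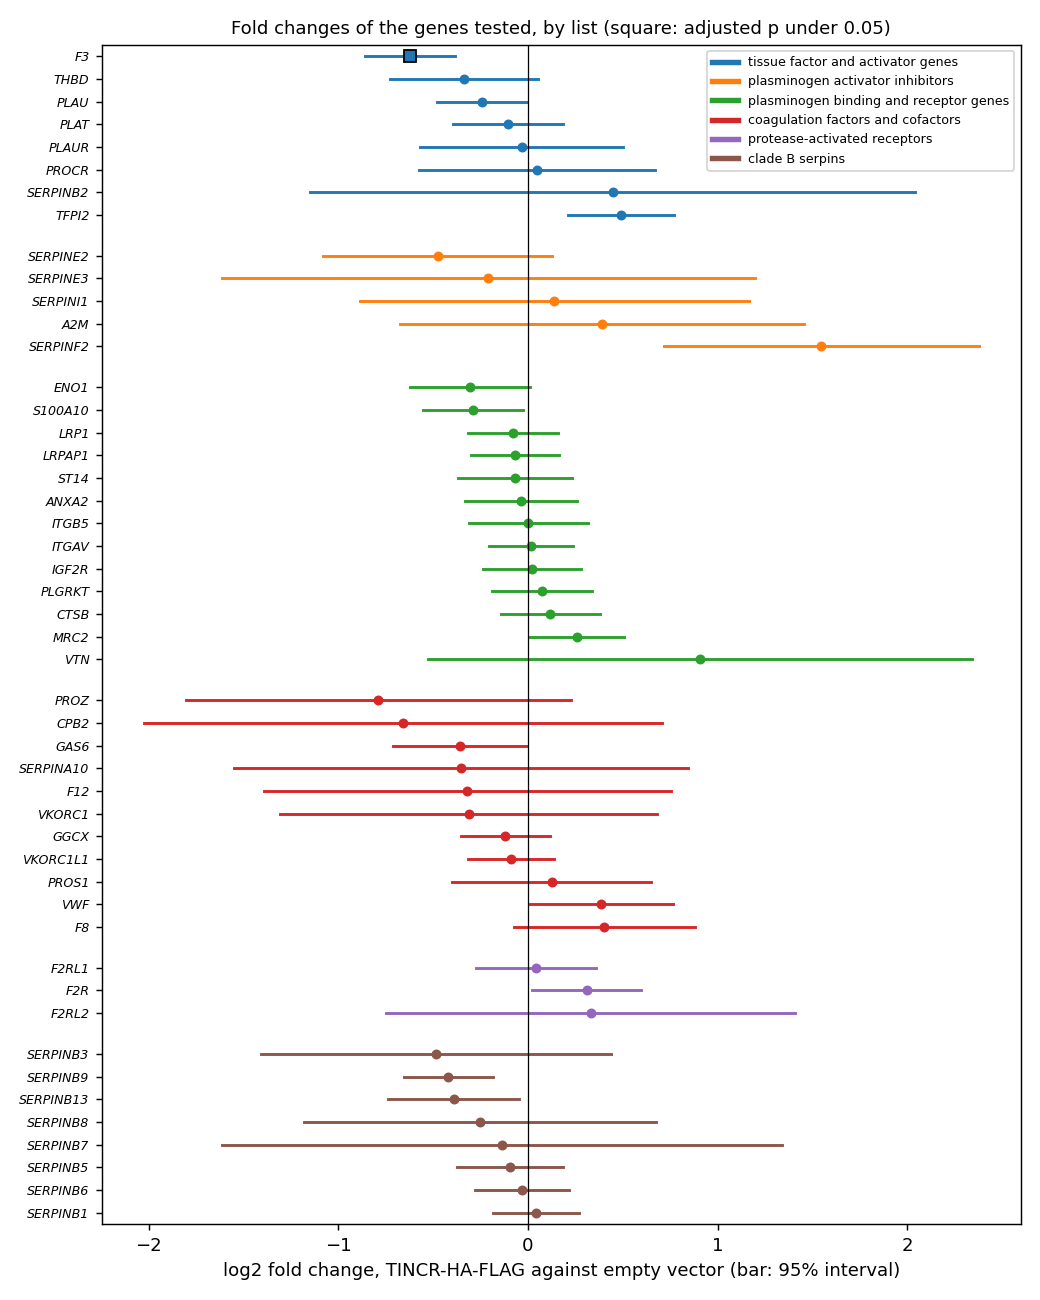
Log2 fold change with its 95% interval (horizontal axis) of the 8 members and 40 of the 41 other genes tested, grouped by list. F3 at -0.62 is the square marking the 1 call, the intervals of 5 uncalled genes lie above 0 (TFPI2, SERPINF2, MRC2, VWF and F2R) and those of 5 below 0 (PLAU, S100A10, GAS6, SERPINB9 and SERPINB13), and SERPINB2 has an interval from -1.15 to 2.04.

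The profile of F3 over the 4 libraries was compared with 11730 tested genes that have a symbol and a mean log2 CPM of at least 2. By Euclidean distance of centred log2 CPM, UBE2F (distance 0.032), VEGFA (0.065) and CCNA1 (0.0755) lay nearest, with log2 fold changes of -0.67, -0.59 and -0.59. Of these, VEGFA was called (edgeR adjusted p = 0.0471). Log2 fold changes close to that of F3 follow from choosing genes by this distance and are no separate result. With 4 libraries such a likeness carries little information, and 8 genes lay within a distance of 0.1.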

How the data were processed

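Libraries came from RNeasy-extracted RNA by the NEBNext Ultra kit, per the labels' protocols. The table the authors deposited holds raw counts of reads per Ensembl gene. GRCh38, STAR 2.7.9a, DESeq2 1.32.0 and bcl2fastq 2.20.0.422 stand in the submitters' processing notes without roles. How reads were counted, with what strand setting and annotation, is not given in the sources used here, so overlapping genes may share reads. Columns of 12 libraries that match no listed sample were left out.

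The members and lists were chosen with earlier results of these data known. Counts were scaled by TMM, filtered with filterByExpr and tested over all genes by quasi-likelihood in edgeR 4.0.16 (robust, non-legacy; R 4.3.3), with Benjamini-Hochberg adjustment. The SE is the log2 fold change divided by the square root of F. Lengths and positions came from GENCODE v29 (58337 rows matched) and symbols from a reference table (60507 rows matched). Named genes are the members, called genes of each list or else its 2 most expressed, and the 3 profiles nearest to F3. The fit was run on simulated counts drawn with the same dispersion for every gene and no replicate effect. Such counts cannot test it for spread that differs between genes. Alternatives were DESeq2 1.42.0, RLE or library totals, 2 other filters, TINCR left out, a replicate block, the legacy dispersion and each library left out. One of the other pathway genes stayed in every test and count but is not reported here by name.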

Additional observations from a re-analysis of the deposited data

How the results depend on the processing

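F3 kept its direction in all 12 alternatives, with a log2 fold change between -0.65 and -0.60, and was called in 8 of them. Members called lower, 1 in the reported fit, were 0 with no filter on low counts, 2 (F3 and PLAU) with the replicate block and 0 to 1 with a library left out. Members called higher, 0 in the reported fit, were 1 (TFPI2) with the block and 0 to 1 with a library left out. Other pathway genes called were 3 higher and 6 lower with the block and 0 otherwise. Over all genes, 85 higher and 18 lower became 1317 and 1316 with the block, 47 and 6 with no filter, 69 to 226 and 45 to 160 with a library left out, and 44 lower with DESeq2. Same-numbered libraries deviated together (correlation across genes 0.37), but nothing in the labels makes a number a shared batch. The block and each left-out library leave 1 residual degree of freedom, and edgeR then took the spread of each gene wholly from that of all genes.

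Among the 19 named genes refitted under the alternatives, signs turned only where a library was left out, and only for genes not called. With each library left out in turn, log2 fold changes ran from -0.092 to 0.17 for PROCR, -0.14 to 0.058 for PLAUR, -0.25 to 0.014 for PLAT and -0.20 to 1.38 for SERPINB2. They ran from -0.15 to 0.069 for ANXA2, -0.17 to 0.24 for F2RL1 and -0.10 to 0.0094 for SERPINB6. The cause was not tested.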
